A study of Danio rerio with 20 samples.

Results

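The change between morning and afternoon was taken from 6 of the 20 RNA-Seq libraries of a series on zebrafish larvae. These are the ZT9 libraries of untreated *rx3 strong* mutants, *rx3 weak* mutants and wild-type siblings, which were set against the ZT3 libraries of the same 3 genotypes, with the genotype as a factor. *Zeitgeber* time (ZT) counts hours after lights on, so that in the cycle of 12 h light and 12 h dark used here both times fall in the light phase, 6 h apart. Larvae were 5 dpf, came from pooled clutches, had been sorted from their siblings at 1 dpf and were kept at 28 °C, and each library holds 30 whole larvae. The *rx3 strong* larvae are homozygous for the allele t25327 of *rx3*, a homeobox gene of the eye field and hypothalamus, and the *rx3 weak* larvae are homozygous for t25181. According to the study, both alleles leave larvae without eyes, while the strong allele also removes most ACTH producing pituitary cells and with them the daily cortisol rhythm. All 6 pools are labelled as untreated, though per the study's methods their medium held 0.1% DMSO, and their strain background is given as mixed (TU, AB, WIK). For a comparison of the same step, 4 further libraries came from *rx3 strong* mutants and wild-type siblings kept in 25 µM dexamethasone (DEX), a synthetic glucocorticoid. There is 1 library per genotype and time, so the 3 genotypes stand in for replicates. The p-values set the mean change with time against how far the course over the day differed between such pools, apart from their level. All 12 untreated libraries share this estimate of the spread. Differences between genotypes in that course and noise between pools cannot be told apart.

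The vertebrate clock is a loop of transcription. Clock and Bmal proteins switch on genes with E-box elements, among them the Period and Cryptochrome genes, whose proteins then repress Clock and Bmal. A further loop of Rev-erb repressors and Ror activators sets the daily course of the Bmal genes, and PAR bZIP activators (Tef, Dbp, Hlf) with their opponent Nfil3 pass time on to other genes. In zebrafish nearly all tissues can sense light directly, and light switches on *per2*, photolyases and repair genes in cells that are not part of the eye.

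The total counts of the 6 libraries lay between 16427280 and 22204708. Levels are given in CPM, a gene's reads scaled to a common library size with TMM factors, which correct for differences in library composition. The targeted gene *rx3* had 2.09 CPM in *rx3 strong*, 2.51 CPM in *rx3 weak* and 7.11 CPM in wild-type larvae at ZT9, against 3.09, 1.95 and 4.43 CPM in the same genotypes at ZT3, so it was low in every library and lowest in the mutants at both times. The 14 rod and cone markers summed to 17.4 CPM in *rx3 strong*, 179 CPM in *rx3 weak* and 4020 CPM in wild-type larvae at ZT9, against 16.2, 296 and 3910 CPM at ZT3, so the libraries labelled as mutants were low in eye markers at both times. Sums of markers of muscle, liver, pancreas, gut and skin overlapped between ZT9 and ZT3, and for muscle they were 46900 to 61000 CPM at ZT9 against 45600 to 58400 CPM at ZT3. The neuron sums did not overlap, with 2330 to 2380 CPM at ZT9 against 2120 to 2300 CPM at ZT3, while 0 of 11 neuron markers were called by edgeR or DESeq2 and 0 had an unadjusted p under 0.05. In whole larvae, fewer cells of a type and less RNA per cell cannot be told apart.

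Between ZT3 and ZT9 few genes were called as changed, while 2677 had an unadjusted p under 0.05 in edgeR. Of 22391 genes tested, 500 (2.23%) passed an adjusted p of 0.05 in edgeR's quasi-likelihood test, 162 of them (0.724% of all) higher and 338 (1.51%) lower at ZT9. The other 6 h steps, tested in the same fit, called more genes. It was 2600 genes (11.6%) for ZT3 against ZT21, 1092 (4.88%) for ZT15 against ZT9 and 2308 (10.3%) for ZT21 against ZT15. Neighbouring steps share libraries, and the differences between these counts were not tested. Most changes were small, with a median size of 0.65 on the log2 scale among risen and 0.67 among fallen genes, and 25 risen and 80 fallen genes changed by at least 1. All 162 risen genes and 336 of the 338 fallen genes moved in the same direction in all 3 genotypes. The ZT9 and ZT3 libraries did not overlap in 143 of the risen and 265 of the fallen genes, and this was so for 2796 (12.5%) of all genes tested. The number of calls rested on which genotypes were used, as it was 130 without the wild-type libraries, 151 without the *rx3 weak* libraries and 957 without the *rx3 strong* libraries, and the counts of list members moved with it. Of the 82 genes called among those the naming rule selects, 35 lost the call without the wild-type, 34 without the *rx3 weak* and 3 without the *rx3 strong* libraries, 27 with limma on the log2 table, 49 without the genotype term and 3 with DESeq2.

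**Figure D1:**
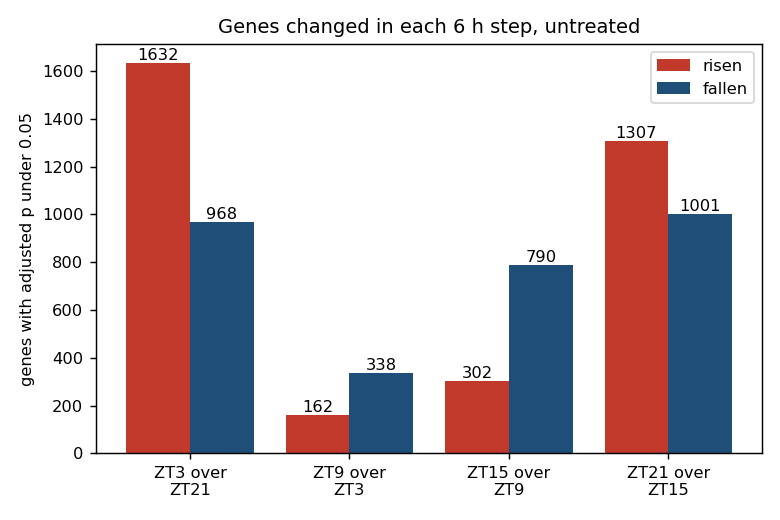
Number of genes with an adjusted p under 0.05 (vertical axis) that rose (red) or fell (blue) in each 6 h step of the day in untreated larvae, 3 libraries per time. The step between ZT3 and ZT9 has the fewest calls, 162 risen and 338 fallen, against 1632 risen and 968 fallen between ZT21 and ZT3.

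The full day placed these genes on longer slopes. Of the fallen genes, 211 (62.4%) had their highest mean at ZT3 and 125 (37.0%) at ZT21, and 245 (72.5%) were lowest only later, at ZT15. Of the risen genes, 90 (55.6%) peaked at ZT15 and 67 (41.4%) at ZT9, and 111 (68.5%) were lowest at ZT21. Among all genes tested, 26.5% peaked at ZT3, 17.4% at ZT9, 28.2% at ZT15 and 27.8% at ZT21. The lowest mean was at ZT3 in 26.7% of them, at ZT9 in 18.6%, at ZT15 in 26.3% and at ZT21 in 28.5%. A called gene cannot peak at the lower of the 2 times compared, so these shares describe the calls and are not a test.

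The activators of the clock were higher in the afternoon. Of 6 measured Clock, Bmal and Npas2 genes, 4 rose and 0 fell, and the median of the list was 0.96 on the log2 scale against −0.003 over all genes. The gene name table gives zebrafish copies of a gene the same symbol, so copies are told apart by identifier. Of the *clock* copies, ENSDARG00000011703 had 87.5, 83.8 and 97.1 CPM at ZT9 in *rx3 strong*, *rx3 weak* and wild-type larvae, against 46.9, 36.0 and 42.3 CPM at ZT3 (log2 fold change 1.1 ± 0.12 SE, adjusted p = 1.1e-05). Every ZT9 library lay above every ZT3 library. The other copy, ENSDARG00000003631, had 44.4 to 48.7 CPM at ZT9 against 35.8 to 39.3 CPM at ZT3 and did not pass (0.32 ± 0.09, adjusted p = 0.0839). The *bmal1* copy ENSDARG00000006791 had 35.8 to 45.0 CPM at ZT9 against 14.4 to 22.1 CPM at ZT3 (1.03 ± 0.21, adjusted p = 0.0118), and the copy ENSDARG00000035732 had 25.8 to 28.9 against 10.9 to 17.5 CPM (0.91 ± 0.16, adjusted p = 0.00357). Both *bmal1* calls were lost without the *rx3 weak* libraries (adjusted p = 0.179 and 0.161), with limma on the log2 table (0.212 and 0.111) and without the genotype term (0.317 and 0.222), and the first also with DESeq2 (0.0978). The related *bmal2* rose by 1.02 ± 0.17 (adjusted p = 0.00173), with 24.4 to 28.0 CPM at ZT9 against 9.68 to 15.4 CPM at ZT3. For *npas2*, a partner of Bmal that can replace Clock, the value was 0.77 ± 0.20 (adjusted p = 0.0518), with overlapping libraries. All 6 genes had their lowest mean at ZT21.

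The Period genes, the main repressors of the loop, moved the opposite way. All 4 measured members fell, with a list median of −2.55, and all 4 kept the call without each of the genotypes. The *per1* copy ENSDARG00000012499 had 16 CPM in *rx3 strong*, 14 CPM in *rx3 weak* and 12.1 CPM in wild-type larvae at ZT9, against 196, 165 and 193 CPM at ZT3. That is a log2 fold change of −3.71 ± 0.11 (adjusted p = 3.86e-13), or 13.1-fold lower at ZT9. The other *per1* copy, ENSDARG00000056885, had 3.76 to 4.70 CPM at ZT9 against 17.5 to 26.5 CPM at ZT3 (−2.36 ± 0.18). For *per3* the levels were 10.4 to 14.1 CPM against 75.7 to 92.6 CPM (−2.75 ± 0.13). The light-induced *per2* had 38.5 CPM in *rx3 strong*, 47.0 CPM in *rx3 weak* and 70.5 CPM in wild-type larvae at ZT9, against 175, 160 and 219 CPM at ZT3 (−1.84 ± 0.13, adjusted p = 3.53e-08). Its mean was 7.56 CPM at ZT21 and 5.89 CPM at ZT15, whereas the 2 *per1* copies had 206 and 108 CPM at ZT21, above their ZT3 levels.

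All 7 cryptochrome and photolyase genes found by name were called, 3 higher and 4 lower in the afternoon. The largest rise was that of *cry3b*, to 147, 165 and 203 CPM at ZT9 in *rx3 strong*, *rx3 weak* and wild-type larvae, against 27.3, 26.2 and 44.0 CPM at ZT3 (2.42 ± 0.12, adjusted p = 2.1e-10). Its paralog *cry3a* had 454 to 570 CPM at ZT9 against 259 to 310 CPM at ZT3 (0.83 ± 0.09), and *cry4*, a cryptochrome whose role is less clear, had 43.7 to 44.7 against 22.0 to 26.3 CPM (0.87 ± 0.11). The fallen members were 2 *cry1* copies and 2 genes close to DNA photolyases. The *cry1* copy ENSDARG00000011583 had 13.7 to 16.3 CPM at ZT9 against 34.0 to 39.9 CPM at ZT3 (−1.34 ± 0.11), and the copy ENSDARG00000045768 had 64.0 to 71.1 against 118 to 128 CPM (−0.88 ± 0.11). The photolyase gene *cry5*, which repairs ultraviolet damage using light, had 7.40 to 9.50 CPM at ZT9 against 62.0 to 69.0 CPM at ZT3 (−2.99 ± 0.16, adjusted p = 8.62e-10). For *cry-dash* the levels were 12.6 to 14 against 83.1 to 93.4 CPM (−2.74 ± 0.12). The mean of *cry5* was 2.58 CPM at ZT15 and 3.38 CPM at ZT21, so its high level was seen at ZT3 and at no other time.

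**Figure D2:**
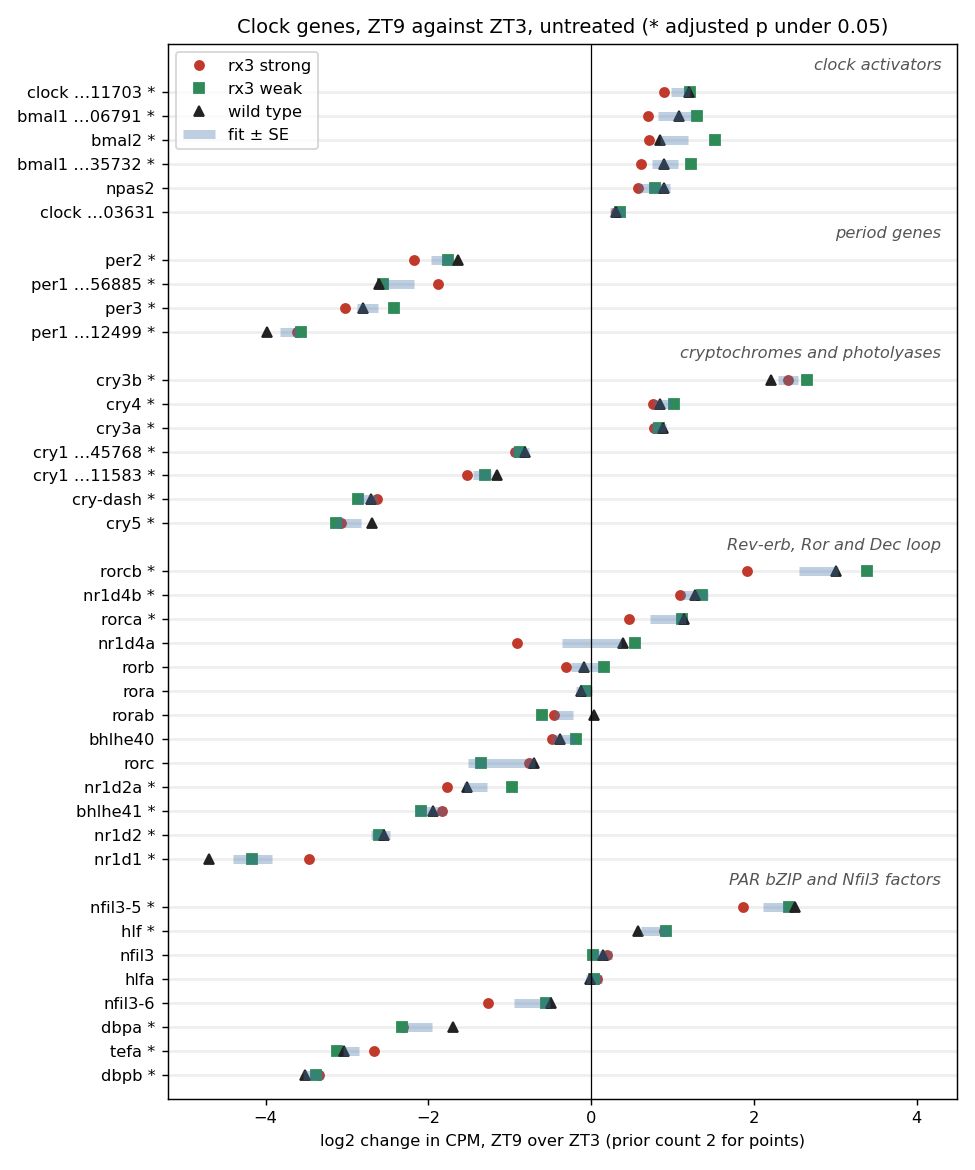
Log2 change in CPM between ZT9 and ZT3 for the tested members of 5 clock gene lists, as 1 point per genotype (red circles *rx3 strong*, green squares *rx3 weak*, black triangles wild type), with the fitted fold change ± SE as a blue bar. Asterisks mark an adjusted p under 0.05. The Period genes lie between −3.71 and −1.84 in the fit and the activators between 0.32 and 1.1, and the genotypes mostly lie on the same side of 0.

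In the Rev-erb, Ror and Dec loop, 3 of 13 genes rose and 4 fell. The Rev-erb gene *nr1d1*, a repressor of Bmal transcription, showed the largest fall on the clock lists. It had 2.80 CPM in *rx3 strong*, 2.36 CPM in *rx3 weak* and 2.45 CPM in wild-type larvae at ZT9, against 32.1, 44.3 and 65.7 CPM at ZT3, a log2 fold change of −4.16 ± 0.24 (adjusted p = 2.26e-09) or 17.9-fold lower. The afternoon libraries were alike, and at ZT3 the *rx3 strong* library was the lowest and the wild-type library the highest. Its relatives *nr1d2* (37.5 to 43.8 CPM at ZT9 against 230 to 257 CPM at ZT3, −2.59 ± 0.12) and *nr1d2a* (11.7 to 20.7 against 39.9 to 58.3 CPM, −1.42 ± 0.14) fell too, whereas *nr1d4b* rose to 7.28 to 7.97 CPM at ZT9, against 2.78 to 3.68 CPM at ZT3 (1.27 ± 0.16). The rise of *nr1d4b* went on into the night, with a mean of 80.1 CPM at ZT15 and 109 CPM at ZT21. The Dec gene *bhlhe41*, an E-box repressor, fell to 11.1 to 12.0 CPM at ZT9, against 39.6 to 49.3 CPM at ZT3 (−1.97 ± 0.18), while *bhlhe40* had 99.3 to 132 CPM at ZT9 against 135 to 172 CPM at ZT3 and did not pass (−0.35 ± 0.15, adjusted p = 0.365).

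The opposing Ror genes split. The activator *rorcb* had the largest rise on the clock lists, with 24.4, 28.2 and 43.8 CPM at ZT9 in *rx3 strong*, *rx3 weak* and wild-type larvae, against 6.36, 2.59 and 5.35 CPM at ZT3 (2.79 ± 0.24, adjusted p = 6.53e-07), and its mean was 3.91 CPM at ZT15 and 0.766 CPM at ZT21. The level at ZT9 thus stood above all other times. Its paralog *rorca* rose by 0.94 ± 0.22 (adjusted p = 0.0273) and lost the call without the wild-type libraries (adjusted p = 0.167), without the *rx3 weak* libraries (0.291) and with DESeq2 (0.212). The remaining members did not pass, with −0.09 ± 0.10 for *rora*, −0.34 ± 0.12 for *rorab*, −0.08 ± 0.17 for *rorb*, −1.1 ± 0.41 for *rorc* and −0.00 ± 0.36 for *nr1d4a*, the last 2 at no more than 2.09 CPM in any of the 6 libraries.

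Of 8 tested genes of the PAR bZIP family and its opponent Nfil3, which carry clock output, 2 rose and 3 fell. The repressor gene *nfil3-5* had 354, 326 and 422 CPM at ZT9 in *rx3 strong*, *rx3 weak* and wild-type larvae, against 97.3, 60.3 and 74.4 CPM at ZT3 (2.25 ± 0.14, adjusted p = 3.86e-09). The activator gene *tefa* had 130, 93.9 and 86.4 CPM at ZT9 in the same genotypes, against 827, 817 and 712 CPM at ZT3 (−2.95 ± 0.10, adjusted p = 4.05e-12). All ZT9 libraries of *tefa* lay far below those of ZT3. For *dbpb* the levels were 6.63 to 6.93 CPM against 69.9 to 80.5 CPM (−3.42 ± 0.12), and for *dbpa* 12.8 to 26.1 CPM against 65.1 to 84.9 CPM (−2.12 ± 0.16). Both Dbp genes were higher still before dawn, at 647 and 249 CPM at ZT21. The low-count gene *hlf* rose by 0.79 ± 0.18 (adjusted p = 0.0223), but its libraries overlapped and the call was lost without each of the genotypes (adjusted p = 0.0553 to 0.3). Values that did not pass were 0.03 ± 0.10 for *hlfa*, 0.12 ± 0.14 for *nfil3* and −0.73 ± 0.22 for *nfil3-6*, and *nfil3-4* was too low to be tested.

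**Figure D3:**
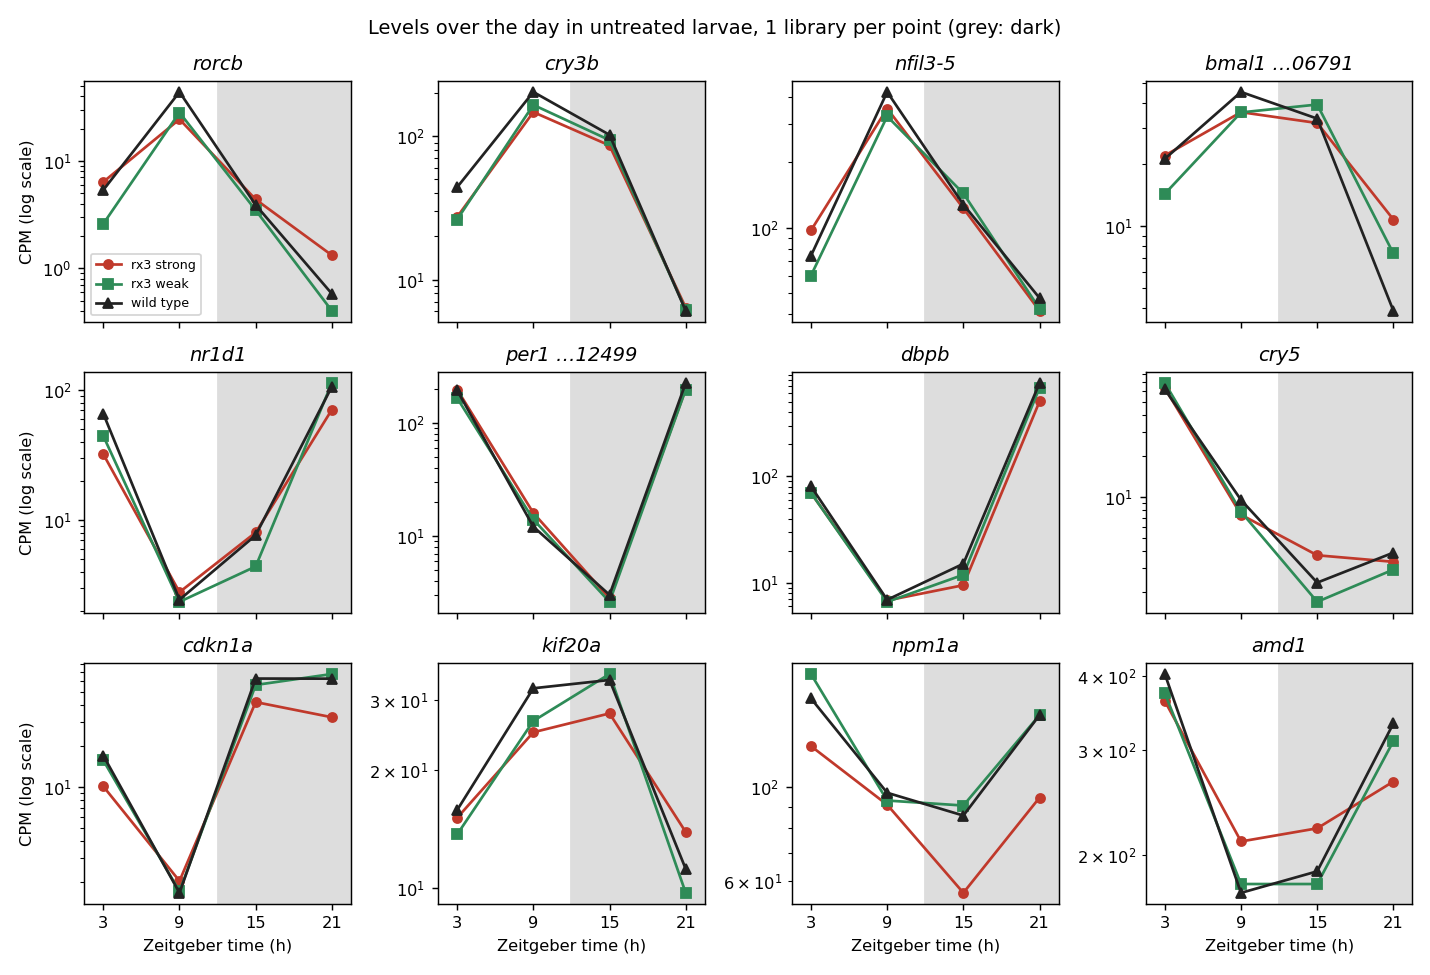
Levels of 12 genes in CPM (vertical axes, log scale) at ZT3, ZT9, ZT15 and ZT21 (horizontal axes) in untreated *rx3 strong* (red), *rx3 weak* (green) and wild-type larvae (black), 1 library per point, with the dark phase in grey. *rorcb*, *cry3b* and *nfil3-5* are highest at ZT9, *nr1d1* and *dbpb* are lowest there, and *cry5* is high at ZT3 alone.

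Further repressors of Clock and Bmal fell with the Period genes. Of 9 tested kinases, ligases and other clock modifiers, 0 rose and 3 fell. The gene *ciarta*, whose mammalian counterpart Chrono represses Clock and Bmal, had 13.6 to 21.8 CPM at ZT9 against 124 to 141 CPM at ZT3 (−2.95 ± 0.13, adjusted p = 4.66e-11), and *ciartb* had 5.93 to 8.19 against 49.4 to 53.7 CPM (−2.82 ± 0.12). The casein kinase gene *csnk1d*, which phosphorylates Period proteins, fell by 0.54 ± 0.10 on the log2 scale (adjusted p = 0.00332), a call that was lost without the wild-type (adjusted p = 0.13) and the *rx3 weak* libraries (0.0856). Outside the list, *cipca*, a relative of the Clock inhibitor Cipc, had 0.777 to 1.1 CPM at ZT9 against 6.97 to 8.81 CPM at ZT3 (−3.01 ± 0.21, adjusted p = 3.22e-08).

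Genes of DNA repair were mostly level, with a few clear falls. Of 25 tested, 1 rose and 4 fell, and the list median was −0.06. The damage sensor of nucleotide excision repair *ddb2* had 16.3, 14.7 and 15.2 CPM at ZT9 in *rx3 strong*, *rx3 weak* and wild-type larvae, against 61.8, 70.4 and 58.5 CPM at ZT3 (−2.05 ± 0.12, adjusted p = 2.26e-09). Its partner in damage recognition *xpc* had 24.6 to 27.4 CPM at ZT9 against 87.7 to 93.7 CPM at ZT3 (−1.81 ± 0.12). Both groups of libraries were tight and far apart. The glycosylase gene *neil1*, of base excision repair, fell by 0.62 ± 0.11 (adjusted p = 0.00307), and this call was lost without the wild-type (adjusted p = 0.0583) or the *rx3 weak* libraries (0.15). Of the 25 genes, 13 had their highest mean at ZT3, 10 at ZT9 and 0 at ZT15. In the following step, ZT15 against ZT9, 16 fell, against 790 of all 22391 genes tested.

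Genes of G2 and mitosis were higher in the afternoon as a group. Of 29 tested, 20 rose and 0 fell, all 29 had a positive fold change, and 26 had all ZT9 libraries above all ZT3 libraries. Counting both directions, the libraries did not overlap in 12.5% of all genes tested. The list median was 0.58, with 0.43 to 0.91 among the list members called. The mitotic kinesin gene *kif23*, which acts in cytokinesis, had 31.8, 41.8 and 39.4 CPM at ZT9 in *rx3 strong*, *rx3 weak* and wild-type larvae, against 20.1, 21.4 and 26.5 CPM at ZT3 (0.74 ± 0.11, adjusted p = 0.000564). Its relative *kif20a* had 24.9 to 32.2 CPM at ZT9 against 13.7 to 15.8 CPM at ZT3 (0.91 ± 0.13, adjusted p = 0.000634), and *anln*, a scaffold of the contractile ring, had 44.4 to 52.9 against 28.5 to 29.2 CPM (0.79 ± 0.14, adjusted p = 0.00349). The size of the change was alike without each genotype, with list medians of 0.64 without the wild-type, 0.54 without the *rx3 weak* and 0.53 without the *rx3 strong* libraries. The number of calls was not, since 1 gene passed without the wild-type libraries, 5 without the *rx3 weak* libraries and 18 without the *rx3 strong* libraries. Without the wild-type libraries *kif20a* (adjusted p = 0.0523) and *anln* (0.105) lost their calls, and without the *rx3 weak* libraries *anln* did (0.0543). Over the day all 29 genes had their lowest mean at ZT21, 21 their highest at ZT15 and 8 at ZT9.

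Genes of replication and S phase had a median of 0.07 and values from −0.45 to 0.53. Of 27 tested, 0 rose and 1 fell in edgeR, against 2.23% of all genes called. DESeq2 called 3, 1 of them higher, and 7 had an unadjusted p under 0.05 in edgeR, against 2677 of all 22391 genes tested. The helicase gene *mcm6* was the gene called by edgeR, with 93.4 to 96.5 CPM at ZT9 against 109 to 133 CPM at ZT3 (−0.39 ± 0.10, adjusted p = 0.0469). It lost the call without the wild-type (adjusted p = 0.591) or the *rx3 weak* libraries (0.261). These genes moved in the steps before and after, as 24 rose in ZT3 against ZT21 and 26 fell in ZT15 against ZT9. For the mitotic genes these counts were 20 risen in ZT3 against ZT21 and 1 risen and 1 fallen in ZT15 against ZT9. In ZT21 against ZT15, 26 mitotic genes fell. Of all 22391 genes tested, 1632 rose in ZT3 against ZT21 and 1001 fell in ZT21 against ZT15. In ZT15 against ZT9, 302 of them rose and 790 fell. Among 9 cyclin kinase inhibitors and G1 genes only *cdkn1a* was called. This inhibitor of cyclin-dependent kinases, which halts the cycle, had 2.04 CPM in *rx3 strong*, 1.71 CPM in *rx3 weak* and 1.67 CPM in wild-type larvae at ZT9, against 10.1, 15.7 and 17 CPM at ZT3 (−2.93 ± 0.19, adjusted p = 1.4e-08). Its means of 53.5 CPM at ZT15 and 54.1 CPM at ZT21 make ZT9 the low point of its day.

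Ribosome biogenesis genes were lower in the afternoon. Of 19 tested, 12 fell and 0 rose, all 19 had a negative fold change, and in 18 every ZT9 library lay below every ZT3 library. Over all genes tested, 12.5% had libraries that did not overlap, in either direction. The list median was −0.53, with −0.72 to −0.41 among the list members called. The nucleolar chaperone gene *npm1a* had 90.9, 93.0 and 97.0 CPM at ZT9 in *rx3 strong*, *rx3 weak* and wild-type larvae, against 125, 185 and 162 CPM at ZT3 (−0.72 ± 0.11, adjusted p = 0.000888). The ZT9 libraries were alike and the *rx3 strong* library was the lowest at ZT3. The gene of the RNA methyltransferase fibrillarin, *fbl*, had 73.8 to 91.9 CPM at ZT9 against 99.5 to 141 CPM at ZT3 (−0.55 ± 0.09, adjusted p = 0.00107), and *gar1*, of the particles that modify ribosomal RNA, had 32.6 to 41.4 against 45.9 to 69.4 CPM (−0.60 ± 0.09, adjusted p = 0.00117). Without the wild-type libraries 2 of the 19 genes passed, without the *rx3 weak* libraries 1 and without the *rx3 strong* libraries 16, while the median stayed between −0.57 and −0.46. *fbl* lost its call without the wild-type (adjusted p = 0.0646) or the *rx3 weak* libraries (0.0644), and *gar1* without the *rx3 weak* libraries (0.059). In the night step, ZT21 against ZT15, all 19 genes rose, against 1307 of all 22391 genes tested. The lowest mean was at ZT15 in 18 of the 19.

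Other genes of protein handling changed less. Of 33 heat shock and unfolded protein response genes, 0 rose and 4 fell, with a median of −0.05. The heat shock factor gene *hsf2* had 11.3 to 14.5 CPM at ZT9 against 57.4 to 70.7 CPM at ZT3 (−2.25 ± 0.12, adjusted p = 1.11e-09), a change far larger than that of any heat shock protein on the list. The mitochondrial chaperone genes *hspd1* and *hspa9* fell by 0.60 ± 0.11 (adjusted p = 0.00411) and 0.43 ± 0.09 (adjusted p = 0.0108), and both lost the call without the wild-type or the *rx3 weak* libraries, with adjusted p = 0.143 to 0.302. Of 31 proteasome subunits 0 were called by edgeR or DESeq2, and their values lay between −0.17 and 0.19. An unadjusted p under 0.05 in edgeR was seen in 1 of them, against 2677 of all 22391 genes tested.

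**Figure D4:**
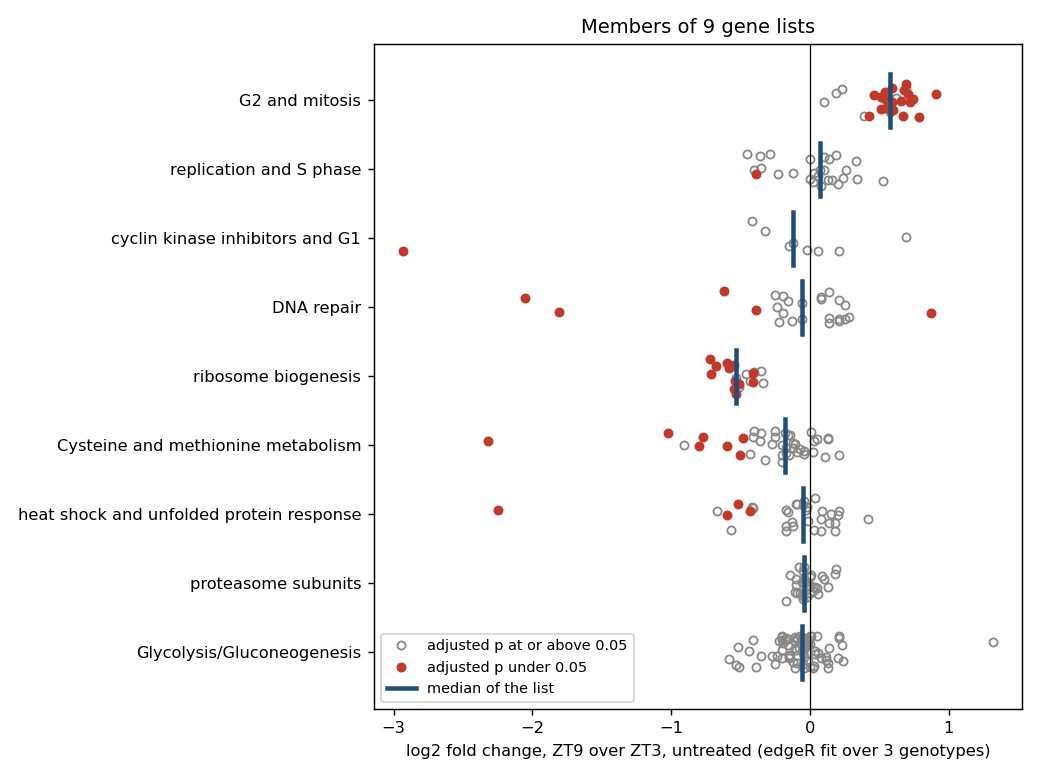
Log2 fold change between ZT9 and ZT3 over the 3 untreated genotypes (horizontal axis) for each tested member of 9 gene lists, with filled red points for an adjusted p under 0.05, open points for the others and a bar at the median. The medians of G2 and mitosis (0.58) and ribosome biogenesis (−0.53) lie apart from 0, whereas DNA repair and cysteine and methionine metabolism hold single large falls.

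Metabolic genes were taken from the 29 pathways of the study, which list 643 genes. Of 624 tested genes, 36 (5.77%) were called, 7 higher and 29 lower, against 2.23% of all genes, and their median was −0.08. The pathway with the most falls was cysteine and methionine metabolism, where 7 of 41 genes fell and 0 rose (median −0.18). With each genotype left out, 4 genes fell without the wild-type, 4 without the *rx3 weak* and 11 without the *rx3 strong* libraries. Methionine is turned into S-adenosylmethionine, the methyl donor of the cell, by Mat2a. The *mat2a* copy ENSDARG00000037121 had 9.11, 6.93 and 9.68 CPM at ZT9 in *rx3 strong*, *rx3 weak* and wild-type larvae, against 47.7, 35.6 and 44.3 CPM at ZT3 (−2.32 ± 0.14, adjusted p = 4.53e-09). The more abundant copy ENSDARG00000040334 had 155 to 170 CPM at ZT9 against 222 to 308 CPM at ZT3 (−0.77 ± 0.10, adjusted p = 0.000255). The decarboxylase gene *amd1*, which draws S-adenosylmethionine into polyamine synthesis, had 211, 179 and 173 CPM at ZT9 in the same genotypes, against 363, 374 and 403 CPM at ZT3 (−1.02 ± 0.11, adjusted p = 1.28e-05). Homocysteine is drawn off by cystathionine beta-synthase, and its gene *cbsb* had 25.2 to 35.3 CPM at ZT9 against 45.7 to 59.8 CPM at ZT3 (−0.80 ± 0.10, adjusted p = 0.000151).

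Neighbouring pathways held falls too. The pathways share genes, so that a fall can be counted in more than 1 of them, as that of *amd1* is in arginine and proline metabolism. In glycine, serine and threonine metabolism 6 of 52 genes fell and 1 rose. Threonine dehydrogenase, *tdh*, had 186, 148 and 130 CPM at ZT9 in *rx3 strong*, *rx3 weak* and wild-type larvae, against 369, 375 and 311 CPM at ZT3 (−1.20 ± 0.10, adjusted p = 7.46e-07), and *agxt* ENSDARG00000018478, which makes glycine from glyoxylate, fell by 0.71 ± 0.11 (adjusted p = 0.00101). The *agxt* libraries of ZT9 and ZT3 overlapped across genotypes, since *rx3 strong* larvae had 35.1 CPM at ZT9 against 58.7 CPM at ZT3 and wild-type larvae 125 against 198 CPM. Of 18 genes of the folate one-carbon pool 3 fell and 0 rose (median −0.29), and of 14 genes of folate biosynthesis 5 fell and 0 rose. The gene of folylpolyglutamate synthase, *fpgs*, which retains folate in the cell, had 17.7 to 20.9 CPM at ZT9 against 30.4 to 32.3 CPM at ZT3 (−0.70 ± 0.12, adjusted p = 0.00354). It lost the call without the wild-type (adjusted p = 0.0813) or the *rx3 weak* libraries (0.0611). In arginine and proline metabolism 5 of 69 genes fell, among them both copies of the proline dehydrogenase gene *prodha* (−0.87 ± 0.13 for ENSDARG00000044804 and −0.76 ± 0.12 for ENSDARG00000086746).

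In central carbon metabolism no call was made at this step. Of 75 tested genes of glycolysis and gluconeogenesis, 33 of the TCA cycle and 44 of pyruvate metabolism, 0 were called by edgeR and 0 by DESeq2, with list medians of −0.06, −0.07 and −0.04. An unadjusted p under 0.05 was seen in 13, 4 and 2 of them, against 2677 of all 22391 genes tested. The largest value on these lists was 1.32, for *gck*, which did not pass. In purine metabolism 2 of 106 genes rose and 3 fell, in alanine, aspartate and glutamate metabolism 0 of 49 rose and 4 fell, and each pathway not named here had at most 2 calls in a direction. Among single rises, catalase (*cat*), which breaks down hydrogen peroxide, had 171 to 208 CPM at ZT9 against 140 to 162 CPM at ZT3 (0.35 ± 0.09, adjusted p = 0.0401), with the call lost without the wild-type (adjusted p = 0.355) or the *rx3 weak* libraries (0.43). Of 31 further lipid genes only *acaca*, the acetyl-CoA carboxylase that opens fatty acid synthesis, was called, with 70.0, 72.5 and 81.6 CPM at ZT9 in *rx3 strong*, *rx3 weak* and wild-type larvae, against 108, 111 and 134 CPM at ZT3 (−0.65 ± 0.09, adjusted p = 0.000399).

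The other lists had 1 or 2 calls each, against 2.23% of all genes tested, and a difference from that share was not tested. In the glucocorticoid axis and its targets 1 of 16 genes was called, *hsd11b2*, whose enzyme inactivates cortisol, with 28.8 to 30.4 CPM at ZT9 against 19.2 to 22.2 CPM at ZT3 (0.51 ± 0.12, adjusted p = 0.0353). That call was lost without the wild-type (adjusted p = 0.463) or the *rx3 weak* libraries (0.305). In the autophagy and FoxO list the kinase gene *ulk2*, which starts autophagy, fell by 0.81 ± 0.11 (adjusted p = 0.000178) and the sestrin gene *sesn3* rose by 0.36 ± 0.08 (adjusted p = 0.0263, and 0.502 without the wild-type and 0.179 without the *rx3 weak* libraries), out of 30 genes tested. Of 21 immediate early genes only the Myc family gene *mych* was called (−0.77 ± 0.13, adjusted p = 0.00176), and it lost the call without the wild-type libraries (adjusted p = 0.0629). In the insulin and IGF list 1 of 24 genes was called, the *pdk2* copy ENSDARG00000059054, a kinase gene of pyruvate dehydrogenase. It had 16.5 CPM in *rx3 strong*, 55.9 CPM in *rx3 weak* and 52.5 CPM in wild-type larvae at ZT9, against 30.6, 82.0 and 106 CPM at ZT3 (−0.81 ± 0.16, adjusted p = 0.00878), and lost the call without the wild-type libraries (adjusted p = 0.0509). Of 13 melatonin and pineal genes only *gngt2*, which encodes a subunit of the cone G protein, was called (0.70 ± 0.16, adjusted p = 0.024), and it lost the call without the wild-type (adjusted p = 0.351) or the *rx3 weak* libraries (0.191).

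Of the cell type markers, 2 were called in all by edgeR. The cone arrestin gene *arr3*, which ends the light response of cones, had 1.38 CPM in *rx3 strong*, 8.88 CPM in *rx3 weak* and 400 CPM in wild-type larvae at ZT9, against 2.57, 68.4 and 883 CPM at ZT3 (−1.77 ± 0.28, adjusted p = 0.00127). It was lower at ZT9 within each genotype, and the spread between genotypes was far larger. The call was lost with DESeq2 (adjusted p = 0.0567) and with limma on the log2 table (0.174), and without the *rx3 weak* libraries the value was −1.08. The other 13 photoreceptor markers did not pass, and of the 14 tested 10 had a positive and 4 a negative fold change. For *opn1lw2*, a red cone opsin gene, wild-type larvae had 739 CPM at ZT9 against 527 CPM at ZT3 (0.12 ± 0.36 over the genotypes). Outside this list, further photoreceptor genes were called lower, among them *grk7* ENSDARG00000020602 (−1.45 ± 0.24, adjusted p = 0.00201) and *rp1l1b* (−1.53 ± 0.24, adjusted p = 0.00122), while *gngt2* rose. In *rx3 strong*, *rx3 weak* and wild-type larvae *grk7* changed by −1.01, −2.36 and −1.03. For *rp1l1b* these changes were −0.06, −1.73 and −1.49, so it was nearly level in *rx3 strong* larvae. Both fallen genes were named after their values were seen. The carboxypeptidase gene *cpa1* ENSDARG00000030915, of the exocrine pancreas, had 98.3 to 139 CPM at ZT9 against 66.7 to 112 CPM at ZT3 (0.54 ± 0.10, adjusted p = 0.00589), and lost the call without the wild-type libraries (adjusted p = 0.119). Of the 17 pancreas markers, 15 had a positive fold change, and their summed level was 4850 to 6550 CPM at ZT9 against 4150 to 6600 CPM at ZT3.

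Among genes with a symbol and a mean of at least 50 counts, 5 of the 12 largest rises were of genes outside these lists. The cyclin gene *ccni2* had 5.02 to 8.02 CPM at ZT9 against 1.67 to 3.94 CPM at ZT3 (1.31 ± 0.20, adjusted p = 0.00081). The genes *asb14* ENSDARG00000087741 and *asb15* ENSDARG00000045633, which encode substrate adaptors of ubiquitin ligases, rose by 1.16 ± 0.20 (adjusted p = 0.00268) and 1.01 ± 0.22 (adjusted p = 0.016). For *asb14* the levels were 3.77 to 5.93 CPM at ZT9 against 1.89 to 2.33 CPM at ZT3, and for *asb15* 7.59 to 12.7 against 4.54 to 4.75 CPM. The first call was lost without the *rx3 weak* libraries (adjusted p = 0.0733) and the second without the *rx3 strong* libraries (0.0925). The exchange factor gene *arhgef39* rose by 1.12 ± 0.20 (adjusted p = 0.00336, and 0.0693 without the wild-type and 0.115 without the *rx3 weak* libraries). The stress gene *ndrg1* ENSDARG00000010420 had 0.664 CPM in *rx3 strong*, 2.61 CPM in *rx3 weak* and 26.3 CPM in wild-type larvae at ZT9, against 0.525, 0.926 and 10.3 CPM at ZT3 (1.29 ± 0.32, adjusted p = 0.0393). Its level differed between genotypes far more than between times, and the call was lost without the wild-type (adjusted p = 0.819) or the *rx3 weak* libraries (0.301) and with DESeq2 (0.486). Larger rises were seen among genes with fewer counts, for example 3.09 ± 0.34 for the *asb15* copy ENSDARG00000045863 (adjusted p = 1.74e-05) and 2.36 ± 0.34 for *spsb3b* (adjusted p = 0.000476), both named after their values were seen. The 2 largest falls among genes with a mean of at least 50 counts belonged to identifiers without a gene symbol. *si:dkey-18a10.3* had 0.299 to 0.753 CPM at ZT9 against 28.8 to 45.0 CPM at ZT3 (−6.13 ± 0.23), and *si:ch211-132b12.7* had 2.09 to 3.46 against 39.2 to 71.1 CPM (−4.35 ± 0.22). For the unnamed ENSDARG00000043237, a rise, the levels were 33.7 to 47.1 CPM at ZT9 against 4.58 to 10.6 CPM at ZT3 (2.32 ± 0.16).

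Whether the step differed between genotypes was tested with interaction terms. For *rx3 strong* larvae against both other genotypes, 0 of 22391 genes had an adjusted p under 0.05 by edgeR, the smallest being 0.222, while 1440 had an unadjusted p under 0.05, and DESeq2 called 0 as well. For both eyeless mutants against wild-type larvae, 0 genes were called, 362 had an unadjusted p under 0.05, and DESeq2 called 0. With 1 library per genotype and time these fits have 3 residual degrees of freedom, and absence of a call does not show that the genotypes moved alike. As a description, the fallen genes had median changes of −0.49 in *rx3 strong*, −0.79 in *rx3 weak* and −0.67 in wild-type larvae, and in 229 of the 338 (67.8%) the fall was smallest in *rx3 strong* larvae. Among the risen genes the medians were 0.64, 0.66 and 0.58, and *rx3 strong* and wild-type larvae each had the smallest rise in 66 of 162 (40.7%). Over all genes tested the medians were 0.007, −0.021 and −0.005. The shares with the smallest change were not taken over all genes. Each change rests on 1 library per time, and a difference between genotypes in these shares was not tested. The gene with the smallest interaction p was *heph*, encoding the ferroxidase hephaestin, with a change of 1.28 in *rx3 strong*, −0.34 in *rx3 weak* and −0.74 in wild-type larvae (adjusted p = 0.222), and it was named after its values were seen.

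The DEX libraries give the same step in larvae that share no library with the 6 above. They were prepared with another kit, so that kit and treatment cannot be told apart. Both DEX libraries of ZT3 stood apart from the others in composition. Their 10 most abundant genes held 12.36% of the counts in *rx3 strong* and 11.92% in wild-type larvae, against 6.76% to 9.01% in the 6 other DEX libraries. Depth differed between the times too. Total counts at ZT3 and ZT9 were 27935206 and 49738048 in *rx3 strong* and 12586879 and 32912684 in wild-type larvae. Single cell type markers were called as well between ZT3 and ZT9 under DEX. Among them, 5 of 11 neuron, 3 of 12 muscle and 4 of 14 photoreceptor markers fell. In turn, 7 of 13 myeloid and 4 of 17 pancreas markers rose, and the part of this in the calls was not tested. Under DEX 2987 of 23411 genes (12.8%) were called, 1859 higher and 1128 lower at ZT9.

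Of the 500 genes called in untreated larvae, 498 were tested under DEX, and 396 (79.5%) had a fold change of the same sign there, against 49.0% of all genes tested in both. Called in the same direction were 105, which is 21.1% of these genes, against 6.47% of all genes tested in both. These 105 are 3.52% of the genes called under DEX. By direction it was 84 of 338 fallen genes (24.9%), against 5.36% of all genes with a negative untreated value. Of the risen genes it was 21 of 160 (13.1%), against 7.6% of all with a positive untreated value. In turn, 9 fallen genes were called as higher under DEX. All 4 Period genes fell under DEX, with a median of −2.33 against −2.55 without it, and 5 of 6 clock activators rose under DEX, with a median of 0.94 against 0.96 without it. For *nr1d1* the log2 fold change was −4.17 ± 0.20 under DEX and −4.16 ± 0.24 without it, and for *rorcb* it was 3.32 ± 0.35 and 2.79 ± 0.24.

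Several values were smaller under DEX. The fall of *cry5* was −0.67 (adjusted p = 0.124) under DEX and −2.99 without it, and that of *cry-dash* −0.81 (adjusted p = 0.0643) and −2.74. For *ddb2* it was −1.26 (adjusted p = 0.00692) and −2.05, for *xpc* −0.91 (adjusted p = 0.0241) and −1.81, and for *cdkn1a* −1.37 (adjusted p = 0.0067) and −2.93. Of 30 G2 and mitosis genes tested under DEX 0 were called by edgeR or DESeq2 and 0 had an unadjusted p under 0.05, with a median of 0.19. Of 19 ribosome biogenesis genes 0 were called by either tool and 1 had an unadjusted p under 0.05, with a median of −0.35. Of all 23411 genes tested under DEX, edgeR called 2987 (12.8%), and 7254 had an unadjusted p under 0.05. The DEX set holds no *rx3 weak* libraries. Without these, the untreated libraries called 5 of 29 G2 and mitosis genes (median 0.54) and 1 of 19 ribosome biogenesis genes (median −0.46). In simulated counts the DEX fit recovered 28% of genes changed by 1 on the log2 scale, a larger change than these medians. Why these 2 lists had no calls under DEX was not tested. The differences between DEX and untreated larvae were not tested.

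**Figure D5:**
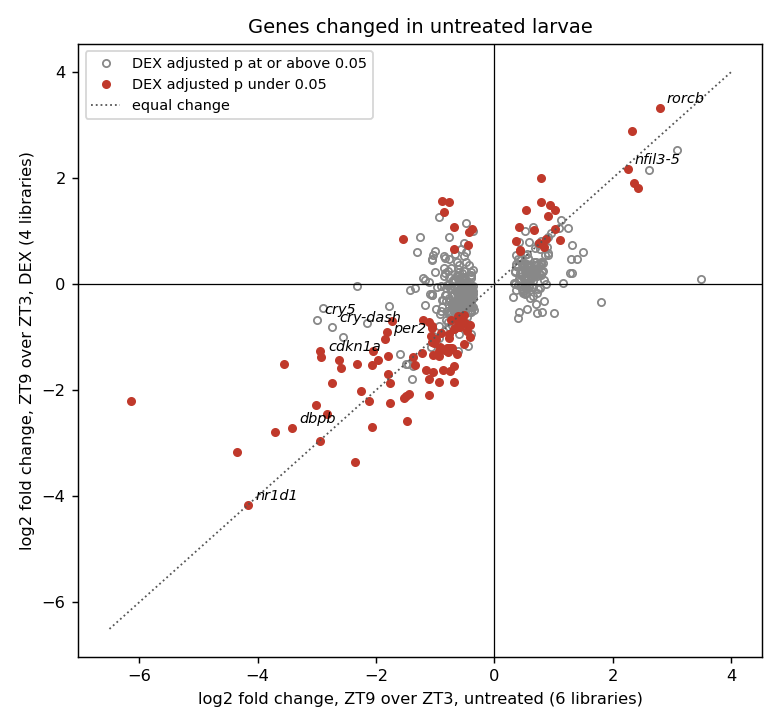
Log2 fold change between ZT9 and ZT3 under DEX (vertical axis, 4 libraries) against that in untreated larvae (horizontal axis, 6 libraries) for the 498 genes called in untreated larvae and tested in both, with red points for an adjusted p under 0.05 under DEX and a dotted line at equal change. 396 genes lie on the same side of 0 on both axes, and *cry5* and *cry-dash* lie well above the dotted line.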

How the data were processed

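RNA-Seq counts of 12 untreated and 8 DEX libraries were used. The authors mapped reads to the Zv9 genome with STAR and counted uniquely mapped reads per Ensembl gene with HTSeq. They deposited the raw counts and a second table on a log2 scale normalized and variance stabilized with DESeq2 (25590 genes, values 1.9 to 19.4), which served as an alternative. Reads of overlapping genes and near-identical copies cannot be told apart.

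Here, edgeR 4.0.16 with TMM factors, its filter on low counts and the quasi-likelihood test was used, with genotype and time as factors in the 12 untreated libraries (6 coefficients, 6 residual degrees of freedom), so that all times shared the estimate of the spread. The 8 DEX libraries were fitted apart. Log2 changes per genotype used a prior count of 2. P-values were adjusted by Benjamini and Hochberg over all genes tested, with 0.05 as the threshold. The edgeR fits were tested on simulated counts. Of 100 genes changed by 1 on the log2 scale, 96% were recovered for the untreated step and 28% under DEX. For the interactions with *rx3 strong* and with eyeless larvae, 65% and 26% were recovered. R 4.3.3, limma 3.58.1, DESeq2 1.42.0, Python 3.11.15 and pandas 2.3.3 were used. The columns that matched no sample numbered 0.

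Symbols were found for 22156 of 32512 identifiers. Named genes are the 12 largest rises and falls past the threshold with the same direction in 3 genotypes, a mean of at least 50 counts and a symbol, all clock list members, up to 3 genes of each other list by smallest p, and at most 2 unnamed identifiers per direction. Members and lists were chosen with earlier results of these data known. List names that matched no identifier were left out. Matched were 13 of 15 names of cryptochromes and photolyases, 27 of 32 of replication and S phase, and 19 of 26 of ribosome biogenesis. Promoter motifs were planned and not run, and no sequence was used here.

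Alternatives were other size factors, no filter or a mean of 50 counts, DESeq2, limma on the log2 table, the 6 libraries alone, no genotype term, each genotype left out and a prior count of 0.5.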

Additional observations from a re-analysis of the deposited data

How the results depend on the processing

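The number of genes called between ZT9 and ZT3 in untreated larvae was 500 and ranged from 130 to 957 with each genotype left out. It was 813 with the 6 libraries alone, where 2 residual degrees of freedom remain, and 196 with limma on the log2 table. Without the genotype as a replicate block it was 86. Size factors of DESeq2, no filter, a mean of at least 50 counts and DESeq2's Wald test gave 492, 711, 488 and 557 calls. The interaction of time with *rx3 strong* called 38 genes, and that with eyeless larvae 14, when low counts were not filtered, against 0 each with the filter. Of the 82 named genes called, 0 changed sign under any of the 10 alternatives and 30 kept the call under all of them. Of the named genes not called, *rorb* (−0.08) ranged from −0.19 to 0.02 with each genotype left out, the positive value being that without the *rx3 strong* libraries. The causes were not tested. Counts for the other steps and under DEX stayed within 1.5 times the reported ones, as did the medians per genotype and the shares by peak time within their spread. With 1 library per genotype and time, no error within a genotype can be estimated, and low genes are limited by counting error.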
